A study of Mus musculus with 12 samples.

Results

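The 9 MYC network factors *Myc*, *Mycn*, *Max*, *Mxd1*, *Mxd3*, *Mxd4*, *Mxi1*, *Mnt* and *Mga* were followed in splenic CD4+ T cells that had met their antigen again under checkpoint blockade. They were chosen by name, as MYC, a relative, their shared partner and its antagonists, and are 9 of 56691 mouse genes in the count table and 9 of the 15138 genes whose reads summed to 30 or more. Responder cells, which are CD4+ cells carrying both the blue and the red form of the *Nr4a3* Timer, came from 12 mice of the genotype Tg4 *Nr4a3*-Tocky *Il10*-GFP, with 3 mice to each of 4 treatments. All cells carried the Tg4 T cell receptor, which is specific for myelin basic protein, with the Timer reporting *Nr4a3* transcription and GFP reporting *Il10*. Each animal was first given [4Y]-MBP peptide under the skin at 4 mg/kg, then antibody 24 h later, and 0.4 mg/kg of peptide on the opposite flank 30 min after the antibody. The isotype group had 0.5 mg of a pool of rat IgG1 and rat IgG2a, and the others had 0.5 mg of anti-Lag3 (clone C9B7W), 0.5 mg of anti-PD-L1 (clone MIH5) or both antibodies at equal parts (co-blockade, CB). Spleens were taken 12 h after the second peptide. Mice of the study were typically 6 to 8 weeks old and of both sexes, and neither is given for single samples. Every cell read here had the Timer on in all 4 groups, so cells that did not respond were left out of each of them.

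The 3′ mRNA libraries held between 16449370 and 22151025 reads on genes, with a median of 19176439. Levels are given as CPM, the reads of a gene per 1000000 reads of its library after edgeR's TMM scaling, and values are written in the order of samples 1, 2 and 3 of a group. A count of 0 allows up to 3 reads, or between 0.137 and 0.19 CPM depending on the library, and this limit covers counting error only, since PCR reads without molecular identifiers are not independent molecules. The 10 markers of CD4 T cells summed to between 4170 and 4830 CPM in every library, with each CB library below all those of the other groups. The 6 B cell markers summed to between 6.02 and 25.5 CPM and the 4 NK cell markers to at most 5.5 CPM. The 8 myeloid markers summed to between 4.66 and 26 CPM, at 14.3 to 26 CPM with anti-PD-L1 and 5.82 to 7.52 CPM with CB. The 4 dendritic cell markers summed to at most 3.6 CPM. Of these, the myeloid gene *Cd14* and the dendritic cell gene *Xcr1* had no read. Of the 2 CD8 markers, *Cd8b1* was read at 24.4 to 46.4 CPM and *Cd8a* at 0 to 3.24 CPM.

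MYC is a transcription factor that binds DNA only as a pair with MAX, and T cells switch it on after antigen contact to build ribosomes, take up nutrients and divide. MXD1, MXI1, MXD3, MXD4 and MNT pair with the same MAX, bind the same E-box and bring in the SIN3 corepressor, and are known from cells that leave the cycle or rest, although MXD3 is also known from cells in S phase. MGA is a much larger MAX partner that works in a Polycomb complex called PRC1.6.

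The E-box, CACGTG, reads the same on both strands and was searched by its letters in RefSeq promoters of build GRCm38.p6, from 250 bases before to 50 after a start. A promoter was given for 8 of the 9 members, and 3 of the 8 held the motif (37.5%), against 2187 of 27025 genes with a promoter (8.09%) and 1161 of 9883 tested ones (11.7%). The 3 were *Mxd4*, *Mnt* and *Max*. A match is a description of the letters and not a site of binding. The stretches before the start of *Mxd4* and *Mxd3* are shown because these members carried the largest differences, and the short windows around the motif in *Mnt* and *Max* for comparison. All are written 5′ to 3′ on the strand of the gene, with the E-box in capitals.
Mxd4, chr5:34187721-34187960, minus strand: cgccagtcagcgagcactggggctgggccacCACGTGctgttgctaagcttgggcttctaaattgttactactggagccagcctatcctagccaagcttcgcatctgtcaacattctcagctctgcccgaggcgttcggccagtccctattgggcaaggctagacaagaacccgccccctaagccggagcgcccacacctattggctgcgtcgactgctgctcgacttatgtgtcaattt
Mxd3, chr13:55329824-55329981, minus strand: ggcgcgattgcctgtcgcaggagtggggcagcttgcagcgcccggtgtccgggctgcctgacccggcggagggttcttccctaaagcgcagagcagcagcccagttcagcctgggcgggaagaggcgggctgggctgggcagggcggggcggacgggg
Mnt, chr11:74830791-74830816, plus strand: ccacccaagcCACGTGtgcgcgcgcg
Max, chr12:76962236-76962261, minus strand: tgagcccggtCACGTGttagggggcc
The *Mxd4* motif began 219 bases before the RefSeq start, that of *Mnt* 123 bases before it, and that of *Max* lay across the start itself. The *Mxd3* stretch had no CACGTG and was 73.4% G and C, against 57.5% in the *Mxd4* stretch. No annotated exon of GENCODE M21 lay in any of these windows.

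To see which members of the network differ when both checkpoints are blocked, CB was compared with isotype. 2 of the 6 antagonists, *Mxd4* and *Mxd3*, fell in CB, and no member rose past the threshold. A gene is called when edgeR's quasi-likelihood test gave it a p under 0.05 after Benjamini-Hochberg adjustment over all 15138 genes. 2 of the 9 members were called, both lower, where 4.29% of all tested genes were called (353 higher and 296 lower). The median log2 fold change of the 9 was -0.14 and that of all tested genes was 0.

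*Mxd4*, on the minus strand of chromosome 5 (34173883 to 34187720), codes for an antagonist known from resting and differentiating cells. Its level was 81.5, 78.1 and 83.2 CPM with isotype and 28.6, 35.1 and 32.1 CPM with CB. Each CB library was below each isotype library by a wide margin, and the isotype libraries were close together. The means were 80.9 ± 2.59 and 31.9 ± 3.23 CPM (SD, n = 3 mice each), a log2 fold change of -1.34 (SE 0.20, 95% interval -1.75 to -0.93, adjusted p = 0.000124 by edgeR). *Mxd4* ranked 42 among all tested genes by p. Between samples of the same number the difference was -1.51, -1.15 and -1.37 on the log2 scale.

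*Mxd3*, on the minus strand of chromosome 13 (55325168 to 55329823), codes for the antagonist that is also known from proliferating cells. It stood at 44.9, 54.0 and 55.4 CPM with isotype and at 22.7, 27.8 and 26.8 CPM with CB. Here too the groups did not overlap, and the fitted CB level was 50.1% of that with isotype. The means were 51.5 ± 5.7 and 25.8 ± 2.71 CPM (n = 3 each), a log2 fold change of -1.0 (SE 0.20, interval -1.41 to -0.59, adjusted p = 0.00274 by edgeR, rank 172). Between samples of the same number the difference was -0.98, -0.96 and -1.05. Both calls held under each of the 22 alternatives and left-out libraries, in which *Mxd4* lay between -1.41 and -1.26 and *Mxd3* between -1.09 and -0.91. The 3′ end of *Mxd3* shares 105 bases with *Prelid1* on the opposite strand, and whether the counting used strand is not given in the sources used here. *Prelid1* had 175 ± 21.9 CPM with isotype and 187 ± 13 CPM with CB (log2 fold change 0.10, SE 0.12, adjusted p = 0.804 by edgeR). An antisense gene lies over the *Mxd4* end and had no read counted. With the strand setting unknown, that count does not show whether antisense reads arose there.

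**Figure D1:**
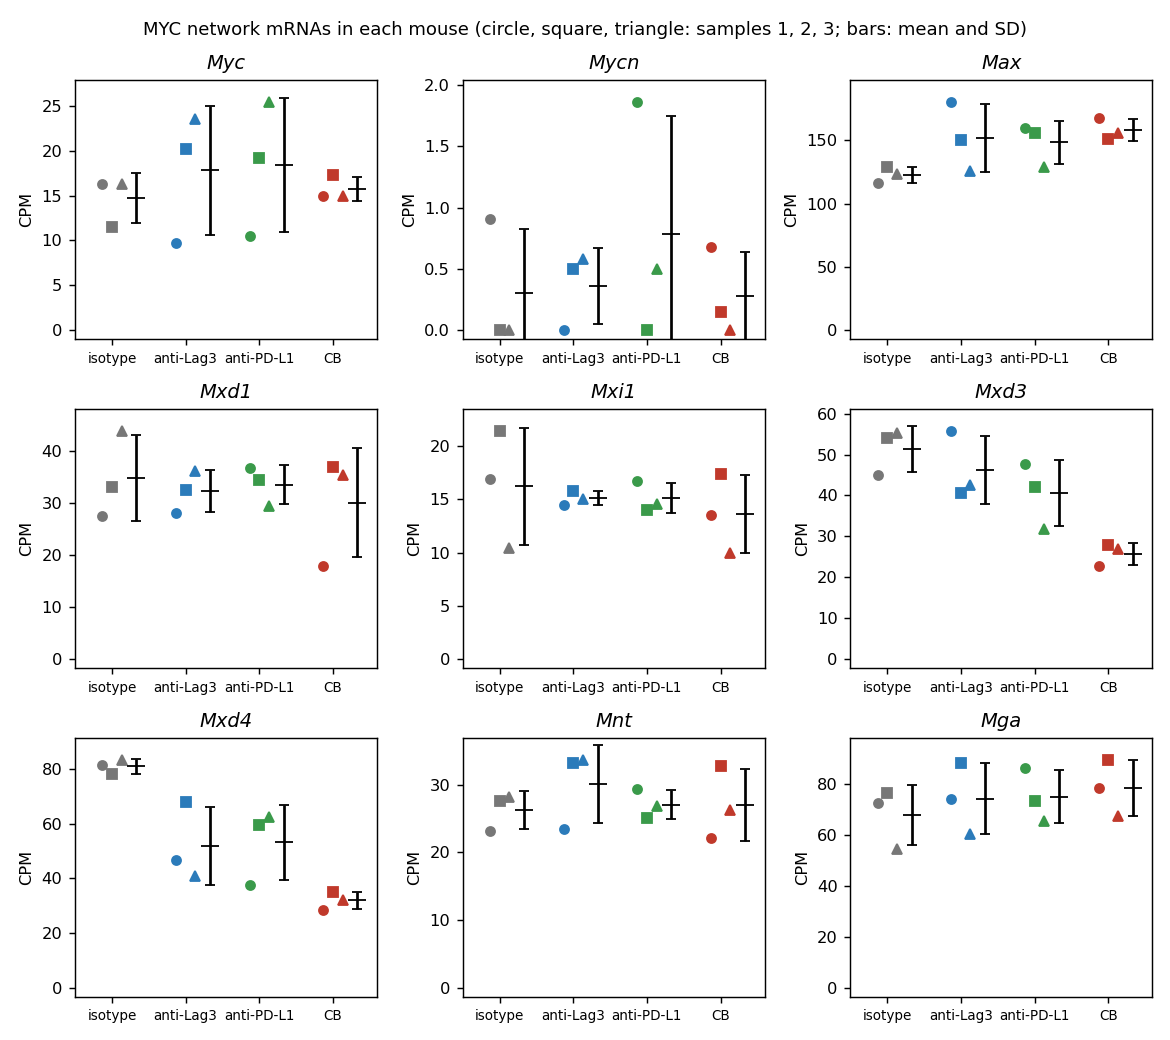
Level of each of the 9 MYC network mRNAs in CPM (y axis) in the 4 groups (x axis); each symbol is 1 mouse, and the bars give the mean and SD of 3 mice. *Mxd4* and *Mxd3* are lowest in all 3 CB mice, *Myc* overlaps between all groups, and *Mycn* is near 0 throughout.

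The other antagonists were not called. *Mxd1*, induced in differentiating myeloid and epithelial cells, had 27.5, 33.1 and 43.7 CPM with isotype and 17.9, 36.8 and 35.3 CPM with CB. A single CB library was low and the other two lay among the isotype values (log2 fold change -0.21, SE 0.25, interval -0.72 to 0.29, adjusted p = 0.79 by edgeR). An unnamed gene model, Gm44292, lies inside *Mxd1* on the same strand and was itself read at 21.3 ± 4.39 CPM with isotype and 23.1 ± 4.69 CPM with CB, so reads there are uncertain between the pair. *Mxi1* had 16.9, 21.4 and 10.4 CPM with isotype and 13.5, 17.4 and 10 CPM with CB, with a log2 fold change of -0.25 (interval -0.89 to 0.39, adjusted p = 0.819 by edgeR). *Mnt*, the antagonist found in most cell types, stood at 23.1, 27.6 and 28.2 CPM with isotype and at 22.1, 32.7 and 26.2 CPM with CB (0.04, interval -0.43 to 0.51). *Mga* had 72.7, 76.4 and 54.3 CPM with isotype and 78.5, 89.3 and 67.6 CPM with CB (0.21, interval -0.13 to 0.56, adjusted p = 0.611 by edgeR). In these 4 genes the groups overlapped, and the intervals leave room for differences of the size their ends give.

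*Myc* itself, on chromosome 15 (61985391 to 61990374), had 16.3, 11.5 and 16.3 CPM with isotype and 15.0, 17.3 and 14.9 CPM with CB. The groups overlapped, and the log2 fold change was 0.10 (SE 0.34, interval -0.59 to 0.80, adjusted p = 0.971 by edgeR). At this depth and spread, that interval leaves room for differences of the size its ends give. *Mycn*, a relative used mainly in development, had 98 reads in all 12 libraries and none in 5 of them, with an SE of 2.61 on its log2 fold change, so no direction can be read. *Mycl*, the third MYC gene, did not reach 30 reads in sum.

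*Max*, the shared partner, was higher in each CB library (168, 151 and 156 CPM) than in each isotype library (116, 129 and 123 CPM) and yet was not called. Its means were 158 ± 8.31 and 123 ± 6.37 CPM (n = 3 each), a log2 fold change of 0.37 (SE 0.13, interval 0.10 to 0.63, adjusted p = 0.122 by edgeR). The adjusted p was between 0.0687 and 1 over the 22 alternatives, none of which called it, and the fold change was between 0.29 and 0.41.

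Other transcripts moved with the group as well. The 10 CD4 T cell markers summed to 4660 to 4830 CPM with isotype and to 4170 to 4230 CPM with CB, without overlap. With anti-Lag3 they came to 4530 to 4720 CPM and with anti-PD-L1 to 4360 to 4800 CPM. The 6 erythroid markers summed to 241 to 451 CPM with isotype and to 150 to 198 CPM with CB, without overlap, and to 216 to 289 CPM with anti-Lag3 and 171 to 217 CPM with anti-PD-L1. All 6 had reads, and *Hbb-bs* was read at 101 to 245 CPM. The 2 CD8 markers summed to 40.9 to 45.3 CPM with isotype, 29.2 to 46.4 CPM with anti-Lag3, 24.6 to 30.5 CPM with anti-PD-L1 and 25 to 33.2 CPM with CB. The 6 reporter and activation genes (*Nr4a3*, *Il10*, *Icos*, *Tnfrsf4*, *Cd69* and *Il2ra*) summed to 484 to 623 CPM with isotype and 828 to 937 CPM with CB. They came to 670 to 698 CPM with anti-Lag3 and 591 to 629 CPM with anti-PD-L1. The part of any of these in the lower *Mxd4* and *Mxd3* was not tested. In sorted bulk cells, fewer cells that make a transcript and less of it per cell cannot be told apart.

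To see whether CB differs from the single antibodies, it was compared with each of them. *Mxd4* had 46.8, 67.8 and 40.7 CPM with anti-Lag3 and 37.4, 59.7 and 62.4 CPM with anti-PD-L1. Both groups lay between isotype and CB without overlapping either. The order of the means was isotype (80.9 CPM), anti-PD-L1 (53.2 ± 13.7), anti-Lag3 (51.7 ± 14.2) and CB (31.9), and the middle pair did not differ beyond its spread (log2 fold change 0.04, interval -0.36 to 0.44). *Mxd3* had 55.7, 40.5 and 42.5 CPM with anti-Lag3 and 47.7, 42.1 and 31.9 CPM with anti-PD-L1, all above the CB libraries and reaching into the isotype range.

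Between CB and anti-PD-L1, where 0.37% of all tested genes were called, edgeR called 0 of the 9 members and DESeq2 also 0. DESeq2 called 178 of all tested genes there. 2 members, *Mxd3* and *Mxd4*, had an unadjusted p under 0.05, as did 1374 of all 15138 tested genes. The log2 fold change of *Mxd4* was -0.74 (SE 0.20, interval -1.14 to -0.33, adjusted p = 0.117 by edgeR) and that of *Mxd3* was -0.65 (interval -1.06 to -0.25, adjusted p = 0.199 by edgeR). Without sample 1 of the anti-PD-L1 group, the one with the lowest *Mxd4* there, *Mxd4* was at -0.94 with an adjusted p of 0.0278.

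Between CB and anti-Lag3, where 0.694% of all tested genes were called, 1 of the 9 members was called, *Mxd3*, and it was lower in CB. Its log2 fold change was -0.84 (SE 0.20, interval -1.25 to -0.44, adjusted p = 0.039 by edgeR). The call was lost without isotype sample 2, without any 1 of the 3 anti-Lag3 samples and without any 1 of the 3 CB samples, with adjusted p between 0.05 and 0.21 and fold changes between -0.93 and -0.69. *Mxd4* was at -0.70 (interval -1.10 to -0.29, adjusted p = 0.107 by edgeR), and DESeq2 called it at an adjusted p of 0.0488. Without anti-Lag3 sample 2, the highest there, it was at -0.45 with an adjusted p of 0.563 by edgeR. *Myc* and *Max* lay near 0 in both comparisons, at -0.22 and 0.10 against anti-PD-L1 and at -0.18 and 0.06 against anti-Lag3.

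The single antibodies were then compared with isotype and with each other. edgeR called 0 of the 9 members against isotype with anti-PD-L1, where 0.033% of all tested genes were called, and 0 with anti-Lag3, where 0% were called. It also called 0 members between the single antibodies, where 0% of all genes were called. DESeq2 called 0 members in each of the 3. At an unadjusted p under 0.05 there were 2 members, *Max* and *Mxd4*, for each antibody against isotype and 0 between the antibodies. *Mxd4* was at -0.61 with anti-PD-L1 (interval -1.01 to -0.20, adjusted p = 0.395 by edgeR) and at -0.64 with anti-Lag3 (interval -1.05 to -0.24, adjusted p = 0.805 by edgeR), and each single-antibody library lay below each isotype library. These comparisons and the one of CB use the same isotype libraries. *Max* had 180, 150 and 126 CPM with anti-Lag3 and 160, 156 and 129 CPM with anti-PD-L1, at log2 fold changes of 0.31 and 0.27 against isotype. These were 0.13 and 0.17 without the 4 samples numbered 1, and that with anti-Lag3 was 0.17 without anti-Lag3 sample 1.

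*Myc* spread widely within the single-antibody groups. It stood at 9.72, 20.2 and 23.5 CPM with anti-Lag3 and at 10.5, 19.2 and 25.4 CPM with anti-PD-L1. Sample 1 was the lowest in both groups, while isotype and CB had their values between 11.5 and 17.3 CPM. The coefficient of variation was 40.5% and 40.8% in the single-antibody groups, against 18.9% with isotype and 8.34% with CB (n = 3 each).

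The interaction asks whether the effect of CB differs from the sum of the single effects on the log2 scale. 0 members were called by edgeR and 0 by DESeq2, 0% of all genes were called by edgeR, and 0 members had an unadjusted p under 0.05. DESeq2 called 5 of all tested genes, and 898 of all 15138 had an unadjusted p under 0.05 by edgeR. For *Mxd4* it was -0.09 (SE 0.28, interval -0.66 to 0.48) and for *Mxd3* -0.50 (SE 0.28, interval -1.07 to 0.07, adjusted p = 0.909 by edgeR). The value of *Mxd3* was -0.04 without the 4 samples numbered 1, and -0.65 to -0.35 with 1 library left out. The intervals are wide and leave room for departures from the sum of the size their ends give.

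**Figure D2:**
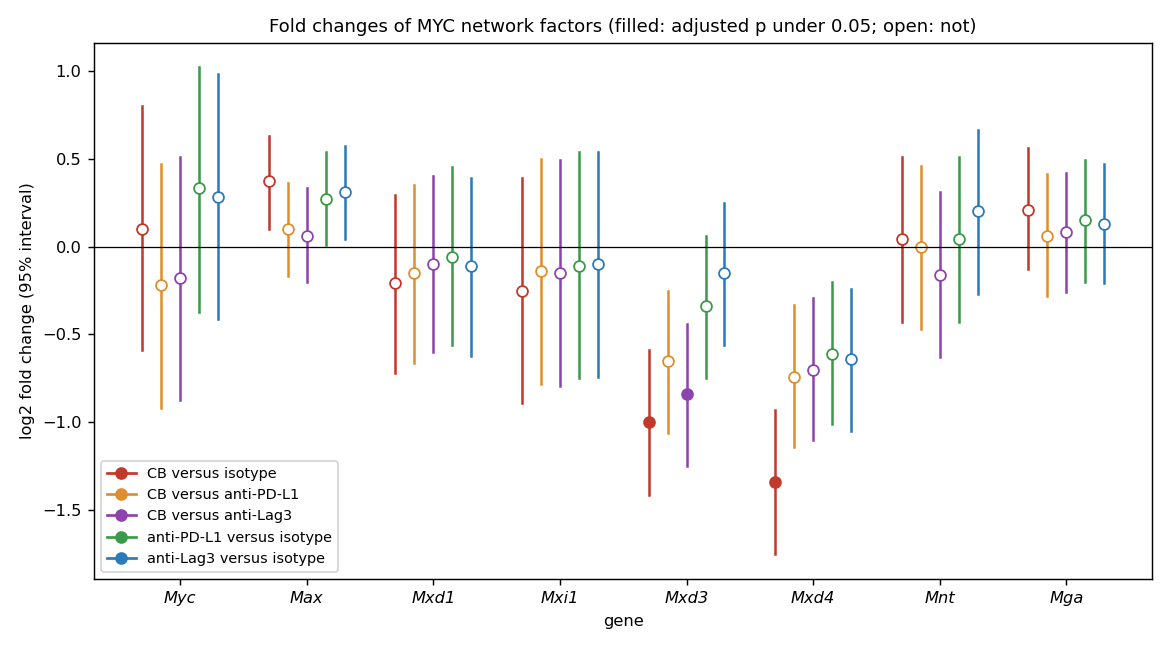
Log2 fold change (y axis) of 8 members (x axis) in 5 comparisons, with 95% intervals as lines; filled symbols have an adjusted p under 0.05 by edgeR, and *Mycn* is left out for its SE of 2.61. Only *Mxd3* and *Mxd4* carry filled symbols among these, *Mxd4* against isotype at -1.34 and *Mxd3* against isotype at -1.0 and against anti-Lag3 at -0.84.

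To set the antagonists against *Myc* within each library, reads of *Mxd1*, *Mxi1*, *Mxd3*, *Mxd4* and *Mnt* were summed and divided by those of *Myc*. In a 3′ library the reads of a gene do not grow with its length, but the share of transcripts captured can differ between genes, so the ratio is a description to compare between libraries and has no test. It was 11.9, 18.7 and 13.6 with isotype and 6.97, 8.67 and 8.73 with CB. Every CB library was below every isotype library. The sum holds *Mxd4* and *Mxd3*, already called lower, so the ratio is no separate result about the antagonists as a class. On the log2 scale the means were 3.85 ± 0.33 and 3.01 ± 0.18 (SD, n = 3 each), and the difference between samples of the same number was -0.78, -1.11 and -0.64. The difference of the means was -0.84. Taken from the authors' rlog values, as the mean of the antagonists minus *Myc*, it was -0.29. That version both shrinks low genes and gives each antagonist equal weight. With equal weight on the log2 of the unshrunk counts, the difference stayed within 0.27, the pooled SD, of -0.84. The part of the shrinkage by itself was not tested. With anti-Lag3 the ratio was 17.4, 9.37 and 7.14 and with anti-PD-L1 16, 9.13 and 6.49. These groups spanned the isotype and CB values, with sample 1, where *Myc* was low, at the top.

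The summed antagonists alone came to 210 ± 14.1 CPM with isotype, 175 ± 12.4 CPM with anti-Lag3, 169 ± 5.17 CPM with anti-PD-L1 and 128 ± 22.6 CPM with CB. The share of these reads that came from *Mxd4* was 36.5% to 42% with isotype and 23.4% to 27.3% with CB. With anti-Lag3 it was 27.8%, 35.7% and 24.2% and with anti-PD-L1 22.3%, 34.1% and 37.8%, reaching into the CB range or below it and, with anti-PD-L1, into that of isotype. The share from *Mxd3* was 23.2% to 25.2% with isotype, 21.4% to 33% with anti-Lag3, 19.3% to 28.5% with anti-PD-L1 and 18.6% to 21.6% with CB. Without *Mxd4* the difference of the log2 ratio between CB and isotype was -0.55 in place of -0.84. That sum still holds *Mxd3*, and the antagonists that were not called were not set against *Myc* by themselves.

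**Figure D3:**
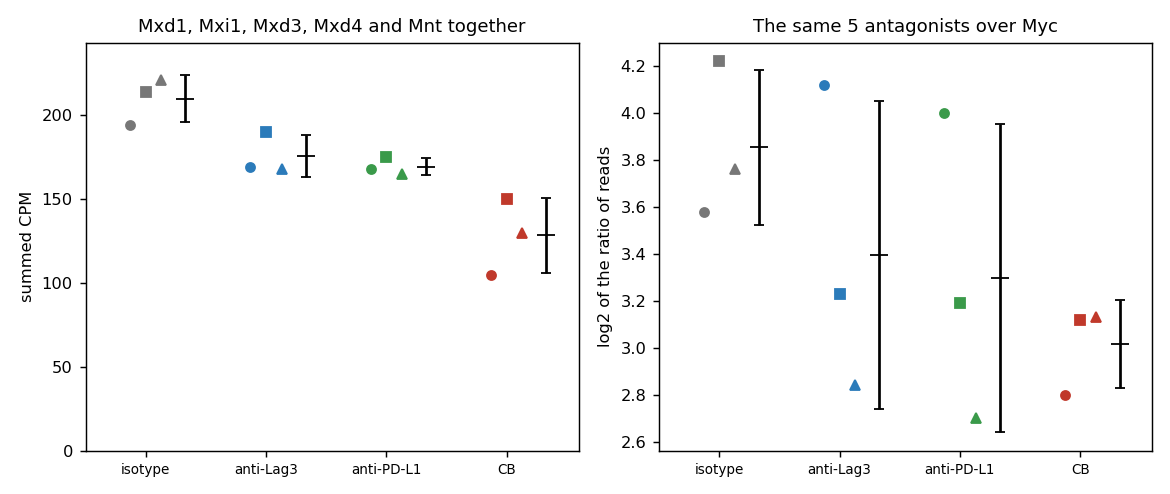
Left, summed CPM of *Mxd1*, *Mxi1*, *Mxd3*, *Mxd4* and *Mnt* in each mouse by group; right, the log2 of their reads over those of *Myc*, on an axis that does not start at 0. Bars are the mean and SD of 3 mice. The CB mice have the lowest sums (105, 150 and 130 CPM), and their log2 ratios (2.80, 3.12 and 3.13) are below those with isotype (3.58, 4.22 and 3.76).

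Across the 12 libraries, which share the 4 groups, *Mxd4* and *Mxd3* had a Pearson correlation of 0.67 in log2 CPM, *Mxd4* and *Max* of -0.66, *Mxd1* and *Mnt* of 0.66, and *Myc* and *Max* of -0.47. Among 10447 genes with 30 or more reads on average, among those most like *Mxd4* were *H2afv* (0.922), *Ilk*, *Rassf2* and Gm14085 (0.902). Those most opposite to it were *Cct6a* (-0.949), a chaperonin subunit, *Uck2* (-0.946), a kinase of pyrimidine salvage, *Eprs*, *Nsun2* and *Gart* (-0.928). *Cct6a* was 304, 324 and 339 CPM with isotype and 482, 443 and 447 CPM with CB. Most like *Mxd3* were *Zdhhc15* (0.936), *Prr13*, *Lockd*, *Cd37* and *H1f0* (0.913), and most opposite *Hmgn1* (-0.914), *Psmd4*, *Tnfrsf9*, *Dnajc2* and *Gpatch4* (-0.899). Most like *Myc* were *Ywhah* (0.866), *Ifi214*, *Ubald2*, 4930452B06Rik and *Ripor1* (0.827), and among those most opposite were *Trir* (-0.872), *Mgmt*, *Aatf* and *Pdcd10* (-0.826). These are the extremes of 10447 values over 12 libraries and a description only.

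Genes that MYC is known to raise were then counted, from a list of 70, of which 69 were tested. It holds genes of ribosome making, metabolism, transport and the cell cycle, among them *Gnl3*, *Wdr43* and *Hk2*, which the paper names as upregulated. This list and those below were chosen with earlier results of these data known, so the shares called are descriptions and not tests. All 69 had a mean of at least 1 CPM, while the share over all tested genes includes genes down to 30 reads in sum. 35 of the 69 (50.7%) rose in CB against isotype and 0 fell, where 4.29% of all tested genes were called, with a median log2 fold change of 0.62, against 0 over all tested genes. *Nolc1*, a nucleolar protein, had 93.3, 131 and 117 CPM with isotype and 264, 237 and 245 CPM with CB (log2 fold change 1.13, SE 0.12, adjusted p = 1.95e-06 by edgeR). *Wdr43*, needed for processing of ribosomal RNA, rose by 1.01 and *Gnl3*, a nucleolar GTPase, by 1.38, while *Hspe1*, a mitochondrial chaperone, rose from 359 ± 15.2 to 574 ± 14.1 CPM (0.68, adjusted p = 2.3e-05 by edgeR). In CB 7 of the 69 (10.1%) were higher than with anti-PD-L1, where 0.37% of all genes were called, and 13 (18.8%) than with anti-Lag3, where 0.694% were. In both 0 were lower, and *Nolc1*, *Wdr43* and *Gnl3* were among the higher ones each time. The medians were 0.29 and 0.38. Against isotype edgeR called 0 of the 69 with anti-PD-L1, at a median of 0.23, and 0 with anti-Lag3, at a median of 0.18. DESeq2 called 5 and 1 there, where it called 56 and 9 of all tested genes. An unadjusted p under 0.05 was reached by 23 and 12, all of them higher, and by 1187 and 788 of all 15138 tested genes. The 35 became 23 without isotype sample 1 and 18 without the 4 samples numbered 1. Against anti-PD-L1 the 7 became 2 without anti-PD-L1 sample 2, 4 without its sample 3, 3 without CB sample 1 and 1 without CB sample 3. Against anti-Lag3 the 13 became 8, 6 and 7 without anti-Lag3 samples 1, 2 and 3, and 6 without CB sample 1 or 3. An E-box was found in 18 of the 61 listed genes with a promoter (29.5%). It was in 6 of the 33 called ones with a promoter (18.2%) and in 12 of the 27 not called (44.4%).

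Of 9 tested genes that MYC is known to repress, 1 (11.1%) fell in CB against isotype, where 4.29% of all tested genes were called. This was *Cdkn1b*, the cell cycle inhibitor p27, at 98.5, 92.4 and 87.2 CPM with isotype and 65.3, 66.2 and 45.8 CPM with CB (log2 fold change -0.65, SE 0.15, adjusted p = 0.00969 by edgeR). It was not called without isotype sample 1 or without CB sample 3. DESeq2 also called 1, and 918 of all tested genes. An unadjusted p under 0.05 was reached by 7 of the 9, all lower, and by 2256 of all 15138 tested genes. The median of the 9 was -0.62.

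Genes of cell division were counted by phase. Of 20 S phase genes 1 (5%) was higher in CB than with isotype, a share near the 4.29% of all tested genes, and this was *Hells*, a chromatin remodeller (log2 fold change 0.50, adjusted p = 0.00918 by edgeR), and the median was -0.02. That count was 0 without isotype sample 1 or CB sample 1 and 2 without isotype sample 3 or anti-PD-L1 sample 1. DESeq2 called 3 of the S phase genes, and 6 had an unadjusted p under 0.05, 3 of them higher. Over all 15138 tested genes these counts were 918 and 2256. Of 20 genes of G2 and M phase 6 (30%) fell and 0 rose, at a median of -0.29. DESeq2 called 9 of them, and 12 had an unadjusted p under 0.05, all lower. *Nusap1*, a spindle protein, had 258, 281 and 247 CPM with isotype and 148, 145 and 180 CPM with CB (log2 fold change -0.73, adjusted p = 0.000648 by edgeR). *Mki67*, the proliferation marker Ki-67, fell by 0.59, *Top2a*, a DNA topoisomerase, by 0.46 and *Kif11*, a spindle motor, by 0.59. 4 of the genes on the MYC-activated list also stand on another list, *Mcm4* and *Mcm5* for S phase, *Plk1* for mitosis and *Cbx3* for PRC1.6.

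The machinery around the network showed few calls between CB and isotype. Of 14 genes that set the turnover and stability of MYC 1 (7.14%) rose, against 4.29% of all tested genes called. DESeq2 called 2, and 5 had an unadjusted p under 0.05. Over all 15138 tested genes these counts were 918 and 2256, which also stand beside the lists that follow. The one that rose was *Pim2*, a kinase known to stabilise MYC, with 50, 53.1 and 49.5 CPM with isotype and 124, 95.3 and 123 CPM with CB (log2 fold change 1.16, SE 0.15, adjusted p = 2.3e-05 by edgeR). The median of the 14 was 0.01, and without CB sample 2 the list had 2 higher and 1 lower. Among 16 MYC cofactors edgeR and DESeq2 called 0, 4 had an unadjusted p under 0.05, and the median was 0.09, and *Ruvbl1*, an ATPase of chromatin complexes, came nearest (0.56, adjusted p = 0.123 by edgeR). Among 14 tested subunits of the SIN3 corepressor edgeR called 0 at a median of -0.11, while DESeq2 called 1 and 1 had an unadjusted p under 0.05, and *Rbbp4*, a histone-binding subunit, came nearest (-0.25, adjusted p = 0.137 by edgeR). Of 10 PRC1.6 subunits edgeR and DESeq2 called 0 at a median of -0.01, and 1 had an unadjusted p under 0.05, *Ring1*, a ubiquitin ligase, at -1.05 (adjusted p = 0.263 by edgeR). Of the 5 genes of the parallel MLX arm, which senses glucose, edgeR and DESeq2 called 0, and 0 had an unadjusted p under 0.05. Their median was -0.28, and -0.07 over the 3 with a mean of at least 1 CPM. *Mlxipl*, the gene of that arm with the smallest p, had 0.141 CPM with isotype and none with CB and is too low for a fold.

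**Figure D4:**
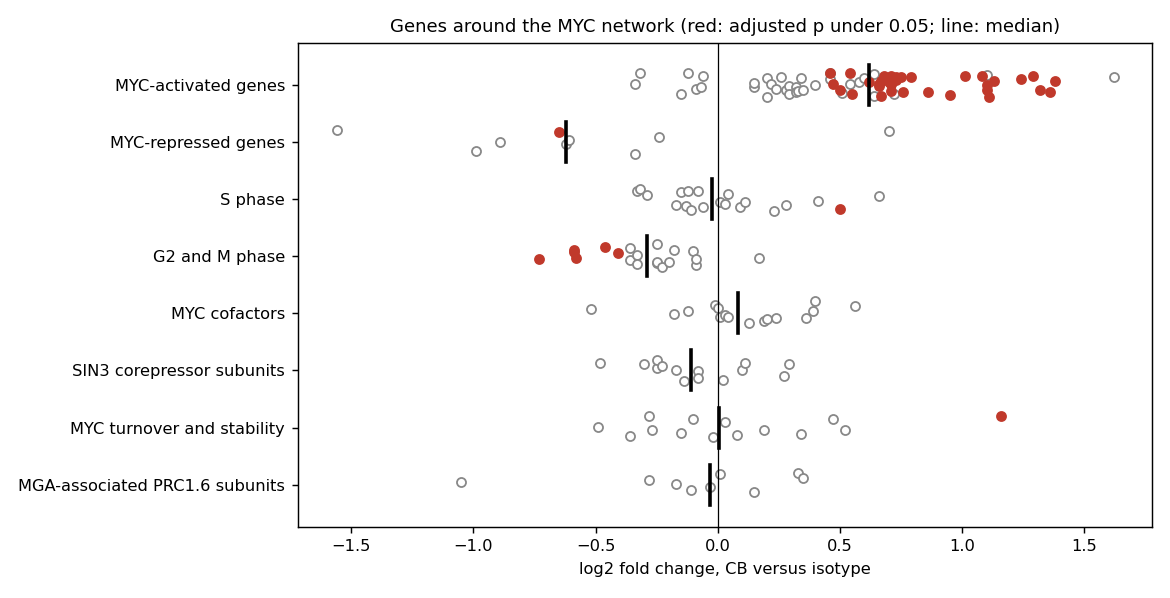
Log2 fold change between CB and isotype (x axis) of single genes, each a point, in 8 lists (y axis), among genes with a mean of at least 1 CPM; red points have an adjusted p under 0.05 by edgeR, and black lines are medians. 35 MYC-activated genes are red to the right of 0 and 6 genes of G2 and M phase are red to the left.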

How the data were processed

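RNA of sorted CD4+ responder cells from 12 mice, 3 in each of 4 groups, had been sequenced with a 3′ mRNA kit without molecular identifiers. The sort ran in batches holding 1 mouse of each group, and no label ties a sample number to a batch. Per the submitters' processing notes, reads were trimmed with cutadapt 1.18, mapped with STAR 2.6.1a to GRCm38 and counted with featureCounts 1.6.4, and DESeq2 in R 4.0 was used. The deposited counts are whole unnormalized reads per gene from uniquely mapped reads. A second table deposited by the authors holds rlog values on a log2 scale, shrunken for low genes, and served 1 alternative. The annotation release and the strand setting are not given in the sources used here. Symbols came from GENCODE M21, which holds 52073 of the 56691 genes, and 114 spike-in rows were left out.

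Genes with at least 30 reads in sum were fitted in R 4.3.3 with edgeR 4.0.16, which loads limma 3.58.1 (TMM, 4 group means, all 12 samples, no covariate, quasi-likelihood tests, Benjamini-Hochberg over 15138 genes, threshold 0.05, prior count 0.125). 7 comparisons were made. P-values rest on 1 estimate of the spread per gene, shared by all 4 groups of 3 mice and moderated across genes. A comparison of 2 groups therefore also uses the spread within the others. CPM uses TMM-scaled library sizes; correlations use log2 CPM with a prior count of 2. Alternatives were DESeq2 1.42.0 against 0 and against 0.2, edgeR against 0.2, DESeq2 size factors, no filter, filterByExpr, a replicate block, a fit restricted to the groups compared, each sample left out, the 4 samples numbered 1 left out, and the gene with the most reads left out. The fit was tested on simulated counts. No library was found to be deposited in duplicate. Members, lists and tests were chosen with earlier results of these data known. All 9 members are named. From each list the 4 called genes with the smallest adjusted p between CB and isotype are named, or else the gene with the smallest p, and the 5 genes most and least correlated with *Myc* and each called member, apart from items not reported here.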

Additional observations from a re-analysis of the deposited data

How the results depend on the processing

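Between CB and isotype the same 2 members, *Mxd3* and *Mxd4*, were called under each of the alternatives and with each library left out (2 to 2). Between CB and anti-Lag3 the main count of 1 member became 2 without a filter on low counts and with DESeq2 against 0, and 0 with DESeq2 or edgeR against 0.2, with only the groups compared, and without the 4 samples numbered 1. With 1 library left out it was 0 to 1. Between CB and anti-PD-L1 the count of 0 became 1 without a filter, and was 0 to 1 with 1 library left out. The cause was not tested.

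With the replicate block, edgeR called 1 member for CB versus anti-PD-L1 and 2 for CB versus anti-Lag3, *Mxd4* being the added one with an adjusted p of 0.0357 and 0.0417 by edgeR, and genes called rose from 649, 56 and 105 to 843, 137 and 208. The deviations of same-numbered samples correlated weakly, between -0.061 and 0.125, and over 0.1 in 2 of 18 pairs. They ran from 0.014 to 0.125 for number 1, -0.061 to 0.089 for number 2 and 0.043 to 0.086 for number 3. These values do not settle whether the numbers stand for sort batches. The paper attributes the second component of its principal component analysis largely to sort batches. With the replicate block the log2 fold change of *Mycn* was 0.98, and it was 3.61 without the samples numbered 1.

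Genes called between CB and isotype were 918 with DESeq2 against 0, 233 with DESeq2 and 364 with edgeR against 0.2, and 330 without the samples numbered 1, and 394 to 705 with 1 library left out. Against anti-PD-L1 they were 178, 18, 3 and 25 in the same order, with 150 without a filter, 4 with only the groups compared and 4 to 57 with 1 library left out. Against anti-Lag3 they were 280, 41, 39 and 47, with 252 without a filter and 42 to 125. For anti-PD-L1 against isotype the 5 became 56, 11, 2 and 1, with 40 without a filter, 23 with the block, 3 with only the groups compared and 0 to 10. Where 0 were called, DESeq2 against 0 gave 9 for anti-Lag3 against isotype, 10 between the antibodies and 5 for the interaction; no filter gave 14, 2 and 10.

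With 1 library left out, small differences crossed 0: between CB and isotype *Myc* ran from -0.05 to 0.18, *Mycn* from -1.98 to 5.43, *Mxd1* from -0.38 to 0.05, *Mxi1* from -0.49 to 0 and *Mnt* from -0.12 to 0.16. Against anti-PD-L1 *Myc* ran from -0.50 to 0.08, against anti-Lag3 *Myc* from -0.47 to 0.07 and *Max* from -0.06 to 0.20, and the interaction of *Mxd4* from -0.29 to 0.16. The difference of the antagonist to *Myc* log2 ratio was -0.98 to -0.66 with 1 library left out and -0.55 without *Mxd4*. It was -0.29 from rlog values with each antagonist given equal weight. Of the 69 MYC-activated genes 15 were called with DESeq2 against 0.2, and of the 20 of G2 and M phase 3. With 3 mice per group, *Myc* at about 15 CPM and *Mycn* near 0 limit what can be seen.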
